A study of Oryctolagus cuniculus with 34 samples.

Results

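The muscles described here are 5 rabbit supraspinatus muscles of the long-term matrix gel group, each set against the long-term uninjured supraspinatus of the same animal code. The supraspinatus is a rotator cuff muscle of the shoulder. The gel was made from tissue-derived extracellular matrix and, per the series text, was given with a repair, so the gel muscles had a repair and the gel and the uninjured muscles neither. The members were the 5 long-term gel libraries (codes 41, 43, 45, 47 and 49) and the 5 long-term uninjured libraries with the same codes, 10 of the 34 bulk RNA sequencing libraries of the series. The long-term repair group (5 muscles with repair alone, codes 36, 40, 44, 46 and 48) and its 5 uninjured partners served only to show where the gel pairs differed. The sources used here do not give the strain, age, sex, kind of injury, gel dose or number of weeks. The side code and the treatment moved together in every pair, so side and treatment cannot be told apart, and neither can injury, repair and gel within these pairs.

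Skeletal muscle is built of slow fibres, which contract slowly and burn fuel in mitochondria, and fast fibres, which contract quickly and draw on glycogen and glycolysis. The 2 kinds use different copies of the myosin, troponin, tropomyosin and calcium pump genes, so these genes report on fibre makeup. After rotator cuff injury, muscle can lose fibres and gain fat and scar: fibro-adipogenic progenitors, marked by PDGFRA, give rise to both, PPARG drives fat cell formation, and fibrillar collagens make up scar. Bulk libraries measure the whole tissue, and fewer cells of a type and less RNA per cell cannot be told apart in them.

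The 5 gel libraries held 12719599 to 15033385 counts and their uninjured partners 12593821 to 14517668. The skeletal actin gene ACTA1 was the most abundant gene in all 10, and 16 of 16 genes of the skeletal muscle identity list were detected and tested. The gel library of code 41 lay apart. Its median correlation with the other gel libraries was 0.888, against 0.972 to 0.978 for the other gel libraries, and ACTA1 took 10.1% of its counts, against 5.59% to 5.86% in the other gel libraries. In its pair 41.8% of genes differed more than 2-fold between gel and uninjured muscle, while the other 4 gel pairs had 3.99% to 7.19% and the 5 repair pairs 1.16% to 10.2%. Its gel library also held more erythroid transcripts, with a summed level of 354 CPM (counts scaled to a common library total) for the erythroid list, against 75.4 to 111 CPM in the other gel libraries and 81.4 to 149 CPM in the uninjured libraries, its own partner having 84.0 CPM. Results are therefore given with and without its pair.

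The pairs asked which genes differed between gel muscle and the animal's own uninjured muscle. Over 11250 genes, edgeR's quasi-likelihood test with the animal code as a block called 0 genes (0% of those tested) at an adjusted p under 0.05, and the smallest adjusted p was 0.165. At an unadjusted p under 0.05 there were 664 genes (5.90%), of which 361 (3.21%) were higher and 303 (2.69%) lower in gel muscle. The number of calls was 50 with DESeq2 and 921 with voom, in which limma weights each sample by its quality. Voom gave the libraries of codes 41 and 49 weights of 0.136 to 0.731 and those of codes 43, 45 and 47 weights of 1.42 to 3.10, so its count rests mainly on those 3 pairs. Without code 41, edgeR called 2 of 11292 genes (0.0177%), and 910 had an unadjusted p under 0.05. The median log2 difference over all genes was -0.04, and 45.8% of genes were above 0. The 95% interval of the difference lay within 2-fold in either direction for 70.0% of genes, and for 86.5% without code 41.

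The genes named first were those with the smallest p that carried a symbol, reached 1 or more in mean log2 CPM and had the same direction in all 5 pairs. There were 557 genes higher in gel muscle in 5 of 5 pairs (4.95% of those tested) and 512 lower (4.55%). None of the 19 leading genes described passed the edgeR test, while DESeq2 called 11 of them and voom all 19. The groups did not overlap for 10 of the 19, against 1.23% of all genes on the higher side and 0.818% on the lower side, but since the 19 were ranked by this contrast nothing is read from that.

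The 9 genes on the higher side had fitted log2 differences of 0.93 to 1.53, each at an edgeR adjusted p of 0.774. The amino acid transporter SLC7A8 had 19.99, 11.9, 16.1, 12.9 and 12.9 CPM in the gel muscles of codes 41, 43, 45, 47 and 49, against 6.40, 5.94, 7.56, 8.37 and 7.02 CPM in their uninjured partners, and values by muscle keep this order of codes below. The groups did not overlap, and the log2 difference was 1.04 (SE 0.19). The cholesterol exporter ABCG1 had 1.53 (SE 0.31), the cytochrome P450 gene CYP2A11 1.43 (SE 0.28) and ADAM23, a membrane disintegrin, 1.25 (SE 0.25). SHISA2, a regulator of growth factor receptor maturation, had 1.20 (SE 0.24) and the kinase gene PAK6 1.09 (SE 0.22). The ankyrin repeat gene ANKRD33B (1.03, SE 0.20), the integrin ligand nephronectin NPNT (0.96, SE 0.19) and the adhesion molecule gene CNTN1 (0.93, SE 0.19) completed this side. Without code 41 these 9 lay between 0.89 and 1.42.

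On the lower side the smallest p belonged to PPP1R3B, which encodes a subunit that brings protein phosphatase 1 to glycogen. It had 6.35, 4.83, 6.48, 6.10 and 16.2 CPM in gel muscle, against 43.7, 47.8, 49.1, 44.8 and 23.3 CPM in uninjured muscle. The groups did not overlap, and the pair of code 49 stood apart from the other 4, being highest among the gel muscles and lowest among the uninjured ones. The fitted log2 difference was -2.51 (SE 0.42, edgeR adjusted p 0.774) and -2.40 without code 41 (edgeR adjusted p 0.508). In repair pairs it was -0.14 (SE 0.61), with 9.8, 31.1, 19.8, 9.1 and 19.8 CPM in the repair muscles of codes 36, 40, 44, 46 and 48, against 129.0, 20.1, 12.6, 5.0 and 19.3 CPM in their uninjured partners. The uninjured muscle of code 36 thus held the highest level of the 20 long-term muscles.

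The growth factor ligand TGFB3 had 39.0, 25.0, 15.3, 36.8 and 25.3 CPM in gel muscle and 96.0, 62.4, 51.3, 65.1 and 32.5 CPM in uninjured muscle. It was lower in gel muscle within each pair, by a log2 difference of -1.11 (SE 0.23), although the ranges of the groups overlapped. Also lower in 5 of 5 pairs were MLC1, a membrane protein gene (-2.83, SE 0.65), the deoxyribonuclease gene DNASE1 (-1.47, SE 0.28), the transcriptional coregulator CITED1 (-1.27, SE 0.27) and FAM240A (-1.09, SE 0.23). Smaller differences came from the Wnt pathway kinase TNIK (-0.79, SE 0.21), the quinone oxidoreductase gene TP53I3 (-0.75, SE 0.19), the epidermal growth factor receptor ligand HBEGF (-0.65, SE 0.16) and PNMT, the enzyme that makes adrenaline (-0.64, SE 0.17). The edgeR adjusted p was 0.774 for each of these 9 genes. For MLC1 the difference in the pair of code 49 was -0.04, against -2.34 to -4.43 in the others.

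Pair 49 gave the smallest difference of the 5 for 12 of the 19 leading genes, and pair 41 for 1. Over all genes pair 49 also had the lowest share beyond 2-fold (3.99%) and pair 41 the highest (41.8%). Nothing particular to the leading genes is therefore read from these counts. In the repair pairs, which share no library with the gel pairs, 18 of the 19 had the same sign, FAM240A being the exception, while over all 11250 genes the sign was shared for 52.2%. That fitted sign was carried largely by repair pair 36, which had the largest repair difference for 16 of the 19. By pair, the gel sign was found for 19 of the 19 in code 36, 1 in code 40, 14 in code 44, 13 in code 46 and 18 in code 48, and for 1 gene in 5 of 5 repair pairs. The same counts were not made over all genes. The share of all genes beyond 2-fold was 8.09% in code 36, 1.16% in code 40, 10.2% in code 44, 8.46% in code 46 and 3.50% in code 48. PPP1R3B, for example, had -3.70 in code 36 and 0.63, 0.64, 0.85 and 0.04 in the other repair pairs. None of the 19 passed the edgeR test in the repair pairs, where 0 of 11625 genes (0%) were called.

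**Figure D1:**
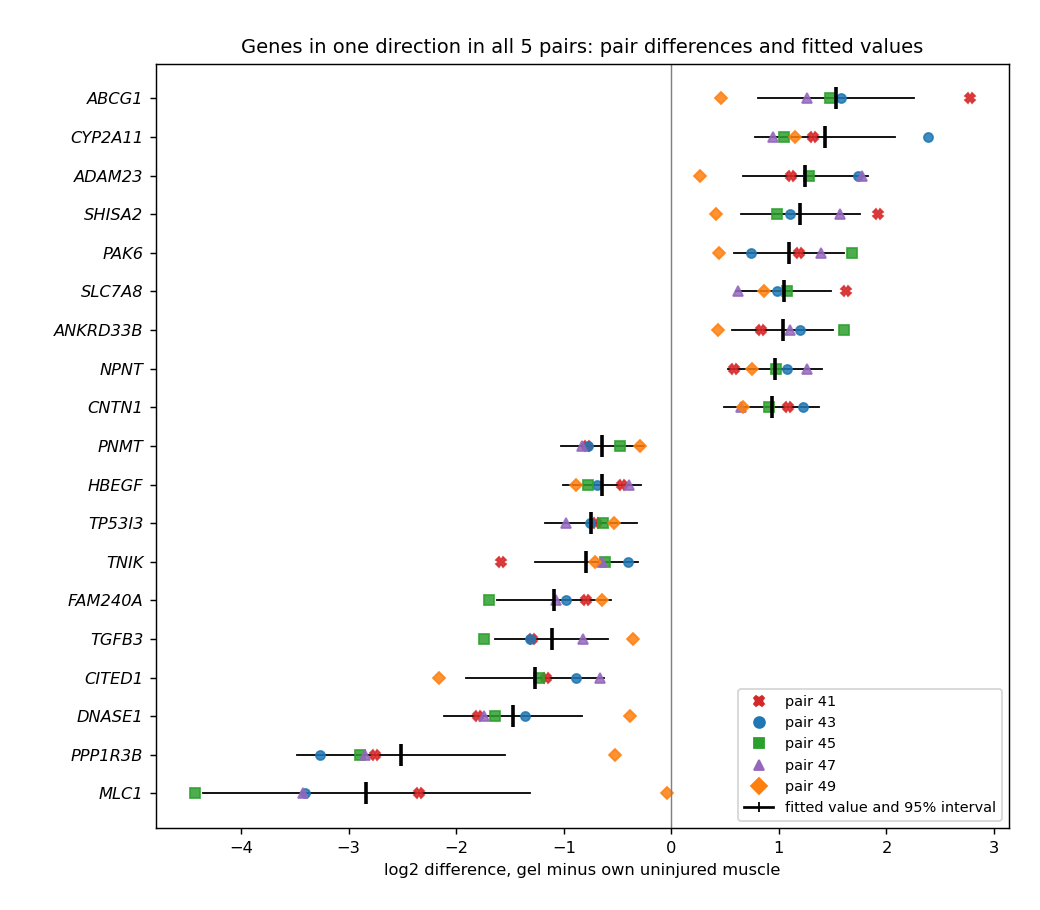
Pair differences and fitted values of the 19 leading genes. The x axis is the log2 difference, gel minus own uninjured muscle, each symbol is 1 pair, the vertical tick is the fitted value and the line its 95% interval. All 5 symbols lie on one side of 0 for each gene, and pair 49 (orange diamonds) lies nearest to 0 for 12 of the 19. Over all genes, pair 49 also had the lowest share beyond 2-fold of the 5 gel pairs (3.99%).

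Leaving out 1 pair at a time called 3 genes in all. Without code 41 these were OR51E2, of the olfactory receptor family, at a log2 difference of 1.75 (SE 0.15, edgeR adjusted p 0.0155), and LOC100009097 at 4.39 (edgeR adjusted p 0.0241), for which the files give no gene name. OR51E2 had 6.92, 19.9, 16.2, 10.5 and 22.6 CPM in gel muscle and 9.72, 4.93, 4.93, 4.12 and 6.12 CPM in uninjured muscle, so it was lower in gel muscle in pair 41 alone. LOC100009097 had 12, 52, 46, 24 and 20 counts in gel muscle and 0, 2, 4, 1 and 0 counts in uninjured muscle. Without code 49, PPP1R3B was called, at -2.98 (SE 0.20, edgeR adjusted p 0.0446), 1 of 11272 genes (0.00887%). METTL21C, a lysine methyltransferase of muscle fibres, was singled out after its values were seen, and followed the same division. It had 11.3, 13.4, 12.4, 13.9 and 53.5 CPM in gel muscle and 503, 131, 562, 580 and 29.7 CPM in uninjured muscle, and its fitted difference was -4.16 (SE 1.08, edgeR adjusted p 0.774). Uninjured muscles of the repair codes 36, 40, 44, 46 and 48 had 488, 87.3, 37.1, 14.7 and 19.3 CPM, so the gene varied widely without injury. The repair pair differences were -6.22, 0.57, -1.25, -0.09 and -0.01.

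**Figure D2:**
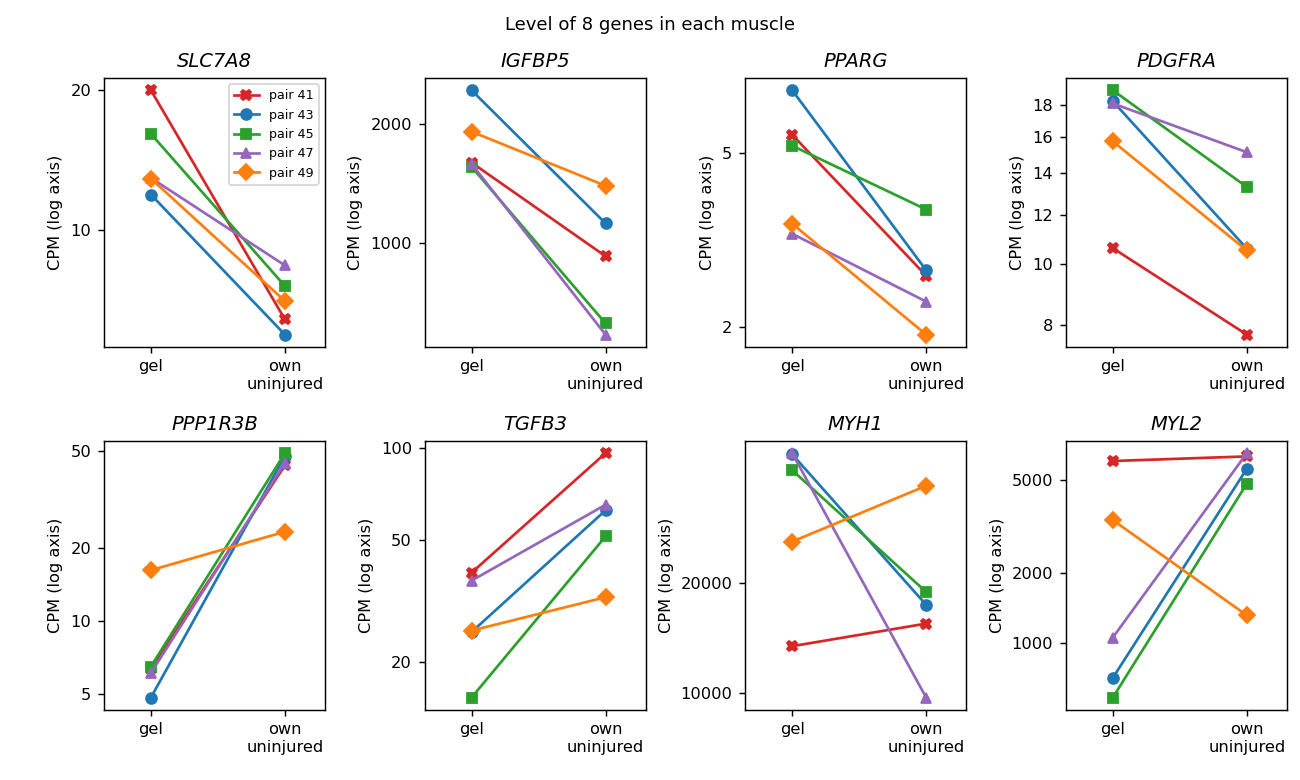
Level of 8 genes in each muscle. The y axes are CPM on a log scale, gel on the left and the animal's own uninjured muscle on the right, and each line joins the 2 muscles of one animal code. SLC7A8, IGFBP5, PPARG and PDGFRA slope down to the uninjured muscle in 5 of 5 pairs and PPP1R3B and TGFB3 slope up, while MYH1 and MYL2 run one way in pairs 43, 45 and 47 and the other way in pair 49.

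Gene lists were described by their counts and their median. Over all genes the median was -0.04, with 45.8% above 0 and 54.2% below 0, and at an unadjusted p under 0.05 there were 3.21% higher and 2.69% lower. Of 34 lists with 5 or more genes tested, 28 had a median log2 difference between -0.3 and 0.3. The 2 farthest from 0 below were the slow fibre and developmental sarcomere lists, and the 2 farthest above were the fast fibre and glycolysis lists. No gene of any list passed the edgeR test in the 5 pairs.

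Most slow fibre genes were lower in gel muscle in pairs 43, 45 and 47 and higher in pair 49, and the list median was near 0 in pair 41. The median log2 difference over the 12 genes tested was -1.47 (-1.65 without code 41 and -2.03 without code 49), with 10 of 12 below 0 (54.2% of all genes). At an unadjusted p under 0.05, 6 were lower and 1 higher, where 2.69% of all genes were lower and 3.21% higher. By pair, the list median was -0.19, -2.0, -2.71, -2.18 and 0.92 for codes 41, 43, 45, 47 and 49. The slow regulatory light chain MYL2 had 6058, 706, 581, 1052 and 3374 CPM in gel muscle, against 6342, 5611, 4834, 6549 and 1313 CPM in uninjured muscle. Its gel levels were thus lowest in codes 43, 45 and 47, its uninjured level was lowest in code 49, and the groups overlapped (log2 difference -1.60, SE 0.78, edgeR adjusted p 0.774). The slow tropomyosin TPM3 (-1.55, SE 0.63), the slow and cardiac troponin C gene TNNC1 (-1.40, SE 0.57), the slow calcium pump ATP2A2 (-0.99, SE 0.36), its inhibitor phospholamban PLN (-1.88, SE 0.72) and the Z-disc gene MYOZ2 (-1.79, SE 0.58) were lower in 4 of 5 pairs, pair 49 being the exception. The slow troponin T gene TNNT1 went the other way (0.68, SE 0.25), as did the calcium pump inhibitor SLN (0.33, SE 0.21, higher in 5 of 5 pairs).

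Fast fibre genes showed the mirror image. All 13 genes tested had a fitted difference above 0, where 45.8% of all genes did, with a median of 0.80 (0.68 without code 41, 1.09 without code 49) and 5 at an unadjusted p under 0.05. By pair the list median was 1.32, 0.74, 0.89, 1.37 and -0.25, and in pair 49 none of the 13 was above 0. The fast myosin MYH1 had 13420, 45218, 40893, 45539 and 26013 CPM in gel muscle and 15482, 17435, 18914, 9693 and 37046 CPM in uninjured muscle, a log2 difference of 0.80 (SE 0.44) and 1.07 without code 41 (SE 0.44). The groups overlapped, and code 49 had the highest uninjured level of the 5. The alpha-actinin of fast fibres ACTN3 (1.58, SE 0.53), the calcium buffer parvalbumin PVALB (1.27, SE 0.41) and the fast calcium pump ATP2A1 (1.07, SE 0.37) were higher in gel muscle in 4 of 5 pairs. In pair 41 the slow and fast lists did not mirror each other: the fast list median was 1.32 and the slow one -0.19. MYH7 and MYH2, the main slow and 2A myosins, are not analysed here.

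The same lists differed as much among uninjured muscles. The mean log2 CPM of the slow list ran from 8.44 to 10.24 in gel muscle and from 9.30 to 10.77 in its uninjured partners, and from 9.28 to 10.31 in repair muscle and from 8.51 to 11.10 in the uninjured partners of repair muscle. The uninjured muscle of code 49 (9.30) lay below its 4 fellows (10.52 to 10.77), and that of code 36 (11.10) above the other 4 uninjured muscles of repair animals. MYH1 had 6268 CPM in the uninjured muscle of code 36 and 27002 to 57420 CPM in the other uninjured muscles of repair animals, against 9693 to 37046 CPM in those of gel animals. Set beside the uninjured muscles of repair animals, those of gel animals had a list median of 0.60 for slow and -0.55 for fast fibre genes, and edgeR called 0 of 11228 genes (0%) between them. An unadjusted p under 0.05 was found for 745 genes (6.64%), the smallest edgeR adjusted p was 0.429, and DESeq2 made 5 calls. When gel muscle was set against all 10 uninjured muscles without the block, the slow median was -0.75 and the fast median 0.36, smaller than in the pairs. In the repair pairs the slow list median was -2.15 in code 36 and 0.34 to 0.88 in the others.

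**Figure D3:**
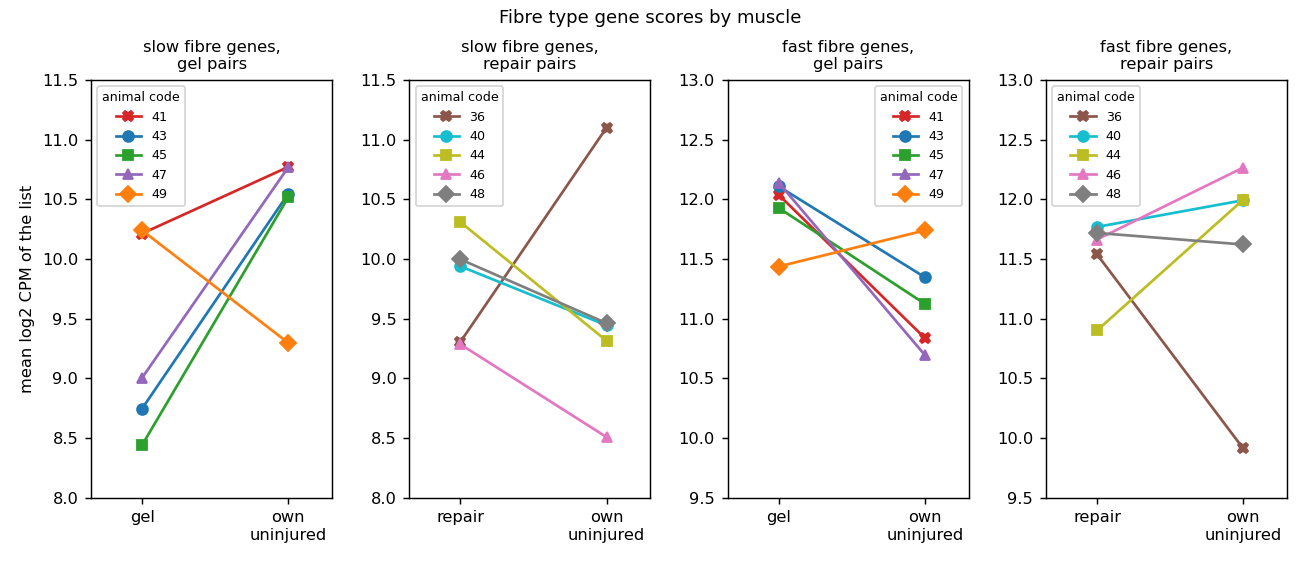
Mean log2 CPM of the slow fibre list (left panels) and the fast fibre list (right panels) in each muscle. Within a panel the operated muscle is on the left and the animal's own uninjured muscle on the right, each line is 1 animal code, and gel pairs stand left of repair pairs. Slow scores are lower in gel muscle in 4 of 5 pairs and fast scores higher in 4 of 5, with code 49 the reverse. Among repair pairs the slow score is lower in the operated muscle in code 36 alone.

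Glycolysis and glycogen genes had values above 0 in the same pairs as the fast fibre genes. Of 27 tested, 21 had a fitted difference above 0, with a median of 0.61 (0.53 without code 41), and 14 were higher at an unadjusted p under 0.05, where 3.21% of all genes were. The list median was 1.31, 0.33, 0.60, 1.04 and -0.07 by pair. Set beside the uninjured muscles of repair animals, those of gel animals had a list median of -0.28. The median list score in mean log2 CPM was 9.52 in gel muscle and 9.09 in its uninjured partners. In the uninjured muscles of repair animals it was 9.44. GAPDH, a central enzyme of glycolysis, had 581, 313, 287, 380 and 266 CPM in gel muscle and 280, 227, 160, 147 and 238 CPM in uninjured muscle, higher in 5 of 5 pairs (0.78, SE 0.22, edgeR adjusted p 0.774). GPI (0.78), TPI1 (0.76), the fructose bisphosphatase gene FBP2 (0.67) and the glycogen synthase gene GYS1 (0.55) were also higher in 5 of 5 pairs, although GPI by 0.00 in pair 49. PFKFB3, which makes the activator of phosphofructokinase, had the largest value (1.18, SE 0.43), which was -0.06 against all 10 uninjured muscles without the block. Hexokinase HK2, the entry step of glucose into the pathway, was lower in 5 of 5 pairs (-0.32, SE 0.15), and the heart-type lactate dehydrogenase LDHB, which slow fibres favour, had -0.59 (SE 0.50, and 0.00 against all 10 uninjured muscles). The oxidative phosphorylation list had a median of -0.13, with 9 of 35 genes above 0 (45.8% of all genes) and none at an unadjusted p under 0.05.

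The developmental sarcomere list holds genes of embryonic and regenerating fibres, several of which slow fibres also use. Its median was -0.83 over 13 genes (-0.70 without code 41), and by pair -0.54, -1.52, -0.52, -1.59 and 0.87. Of the 13, 11 were below 0, where 54.2% of all genes were. The muscle LIM protein CSRP3 (-2.03, SE 0.83), the stretch-responsive ANKRD2 (-1.63, SE 0.66) and the cardiac troponin T gene TNNT2 (-1.48, SE 0.58) had unadjusted p-values under 0.05. MYBPH, ACTC1 and MYL4 had differences of 2.28, 1.63 and 3.27 in pair 41 and of -5.06, -2.95 and -3.56 in pair 43, so their fitted values carry standard errors of 1.46 to 2.00, and MYL4 was 1.42 against all 10 uninjured muscles. The embryonic myosin MYH3, a marker of fibres being rebuilt, had 116, 196, 235, 152 and 125 CPM in gel muscle and 169, 107, 135, 145 and 171 CPM in uninjured muscle, with overlapping groups and a log2 difference of 0.15 (SE 0.27).

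Fat cell genes divided. Of 16 tested, 11 had a fitted difference above 0 (median 0.19, and 0.21 without code 41), and 7 were higher at an unadjusted p under 0.05, where 45.8% of all genes were above 0 and 3.21% were higher at that p. By pair the list median was 0.85, 0.62, 0.06, -0.03 and 0.71. The adipogenic regulator PPARG had 5.50, 6.94, 5.19, 3.27 and 3.45 CPM in gel muscle and 2.62, 2.70, 3.71, 2.29 and 1.93 CPM in uninjured muscle. It was higher in 5 of 5 pairs, with groups that overlapped (log2 difference 0.85, SE 0.21, 95% interval 0.35 to 1.35, edgeR adjusted p 0.774). PCK1, used in fat to make glycerol, had 1.84 (SE 0.39), the lipogenic gene THRSP 1.11 (SE 0.33), the lipid droplet genes CIDEA and CIDEC 1.03 each (SE 0.36 and 0.39), the lipase gene LIPE 0.63 (SE 0.21) and GPD1 0.72 (SE 0.27). Pair 41 was the largest of the 5 for PCK1, THRSP, CIDEA and CIDEC, and without it their values were 1.46, 0.83, 0.67 and 0.65. Leptin LEP was too low to test in the gel pairs. It had 9, 60, 23, 21 and 5 counts in gel muscle and 2, 7, 6, 8 and 7 counts in uninjured muscle. Some other fat cell markers had values near or below 0. Adiponectin ADIPOQ had 73.2, 175, 195, 125 and 120 CPM in gel muscle and 134, 121, 163, 127 and 99.7 CPM in uninjured muscle (0.03, SE 0.23), the fatty acid binding protein FABP4 had 0.15 (SE 0.21), and the lipoprotein lipase LPL, which muscle fibres also make, had -0.45 (SE 0.28).

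Of 18 fibro-adipogenic progenitor markers tested, 15 were above 0, where 45.8% of all genes were, with a median of 0.22 (0.09 without code 41). The gel pairs disagreed in direction. By pair the list median was 0.73, 0.07, -0.03, -0.22 and 0.76, with 16, 10, 9, 7 and 18 of the 18 genes above 0. PDGFRA had 10.6, 18.2, 19.0, 18.1 and 15.7 CPM in gel muscle and 7.72, 10.6, 13.3, 15.1 and 10.5 CPM in uninjured muscle, higher in 5 of 5 pairs by a log2 difference of 0.52 (SE 0.15, edgeR adjusted p 0.774) and with overlapping groups. The dermatopontin gene DPT (0.48, SE 0.16) and the complement gene C3 (0.85, SE 0.22) were also higher in 5 of 5 pairs, and OSR1, a transcription factor of these cells, had 0.86 (SE 0.35).

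Scar and tendon lists had fitted medians near 0, but the gel pairs disagreed in direction. The fibrillar collagen and fibrosis list had a median of 0.02 over 32 genes (-0.01 without code 41 and -0.15 without code 49), with 19 above 0 (45.8% of all genes) and none at an unadjusted p under 0.05. By pair its median was 0.42, 0.13, -0.25, -0.42 and 0.75, with 31 of the 32 genes above 0 in pair 49 and 2 in pair 47. COL1A1, the main collagen of scar, had 197, 146, 99.3, 151 and 105 CPM in gel muscle and 107, 100, 119, 248 and 48.8 CPM in uninjured muscle, a log2 difference of 0.32 (SE 0.30). The groups overlapped, with the highest of the 10 levels in the uninjured muscle of code 47. COL3A1 had 0.19 (SE 0.23), the collagen cross-linking enzyme LOX 0.25 (SE 0.23) and the matricellular gene POSTN -0.51 (SE 0.43). The tenocyte list had a median of 0.08 over 10 genes, which was -0.11 without code 41 and -0.11 without code 49, and by pair 0.80, -0.55, 0.38, -1.27 and 0.63. Its proteoglycan FMOD had 10.5, 0.748, 23.6, 1.09 and 3.37 CPM in gel muscle and 4.09, 2.90, 2.77, 12.4 and 2.27 CPM in uninjured muscle, with no common direction (log2 difference 0.12, SE 0.97, and -0.22 without code 41). The decorin gene DCN had 0.24 (SE 0.29), and 0.54 (SE 0.16) without code 41.

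These lists were higher in the repair pairs than in the gel pairs by their fitted values, and the difference between the gel and repair effects was tested in the 20 long-term libraries. None of 11625 genes (0%) passed edgeR's test of that difference, and 0 passed that of DESeq2. The unadjusted p was under 0.05 for 721 genes (6.20%), and the smallest edgeR adjusted p was 0.671. The collagen list had a median of 0.02 in gel pairs and 0.74 in repair pairs, the tenocyte list 0.08 and 1.32, and the adipocyte list 0.19 and 0.87. By repair pair the collagen median was 0.56, 0.00, 0.88, 1.73 and 0.19 in codes 36, 40, 44, 46 and 48, and the adipocyte median 1.60, 0.09, 2.12, 0.90 and -0.04. The gel and repair ranges therefore overlapped for both. Of 30 panel genes tested, 20 (66.7%) had a fitted difference higher in repair pairs than in gel pairs, against 55.7% of all 11250 genes. Those farthest apart included KERA, a proteoglycan of tendon (-0.29, SE 0.68, in gel pairs and 2.23, SE 0.63, in repair pairs), the lipid-handling macrophage genes SPP1 (0.23 and 2.13) and GPNMB (0.76 and 2.22), and KLF5, a transcription factor (0.09 and 1.59). For KERA and KLF5 the unadjusted p of the difference was 0.0253 and 0.0283, and the edgeR adjusted p 0.671. In the gel animals SPP1 had 7 to 23 counts, GPNMB 4 to 42 and KERA 1 to 33. The SPP1 repair pairs had 1.43, 0.43, 2.47, 5.98 and -0.08, and the uninjured muscle of code 46 held 0.07 CPM. For KERA they were 1.65, -0.63, 1.58, 4.02 and 2.69.

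**Figure D4:**
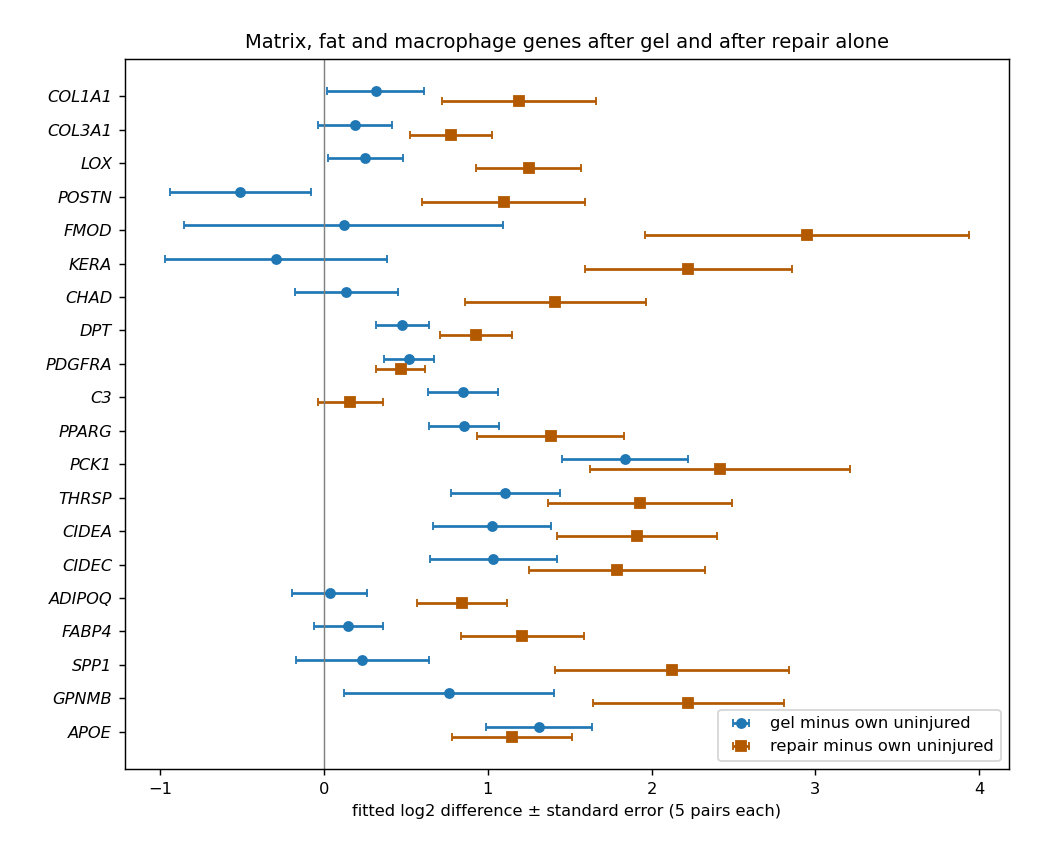
Fitted log2 differences of 20 matrix, fat and macrophage genes in the gel pairs (blue circles) and the repair pairs (brown squares), operated minus own uninjured muscle, with standard errors (5 pairs each). The genes were chosen after their values were seen. Repair values lie right of gel values for 17 of the 20, the exceptions being PDGFRA, C3 and APOE, and none of these differences passed the edgeR test.

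The 5 genes with the smallest p for the difference between the effects were CERCAM, a cell adhesion gene (-1.16, SE 0.31), PAQR9 of the progestin and adipoQ receptor family (-0.83, SE 0.23), TTC7B (0.70, SE 0.20), the cytosolic isocitrate dehydrogenase IDH1 (-0.65, SE 0.19) and VWA3A (-1.46, SE 0.43). The edgeR adjusted p was 0.671 for all 5. CERCAM had pair differences of -0.35, 0.12, -0.28, -0.25 and -0.53 in gel animals and 0.58, 0.06, 1.01, 1.80 and 0.76 in repair animals. TTC7B had 0.87, 0.37, 0.78, 0.80 and 0.02 in gel animals and -0.06, -0.09, -0.31, -0.27 and 0.11 in repair animals. For CERCAM gel pair 43 lay above repair pair 40, and for TTC7B gel pair 49 lay below repair pair 48, so gel and repair pairs overlapped for both.

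Another 3 genes, IGFBP5, PAX3 and LAPTM5, were singled out after their values were seen because gel pairs agreed and repair pairs did not. IGFBP5, an abundant binding protein of insulin-like growth factors, had 1599, 2444, 1560, 1586 and 1917 CPM in gel muscle and 923, 1119, 622, 582 and 1395 CPM in uninjured muscle. The groups did not overlap, and the log2 difference was 1.03 (SE 0.22, edgeR adjusted p 0.774), against repair pair differences of 0.99, -0.33, -0.79, -0.07 and 0.54. PAX3, a regulator of muscle progenitors, had 6.44, 6.12, 4.42, 6.54 and 3.67 CPM in gel muscle and 1.23, 2.97, 2.43, 1.90 and 2.34 CPM in uninjured muscle, again without overlap (1.32, SE 0.29), with repair pair differences of 2.57, -0.27, -1.78, -1.11 and 1.02. LAPTM5, a lysosomal membrane gene of blood cells, had 28.4, 12.1, 12.7, 20.5 and 23.8 CPM in gel muscle and 42.0, 31.8, 32.5, 62.7 and 24.3 CPM in uninjured muscle (-1.0, SE 0.26), and repair pair differences of -1.49, 0.44, 0.46, 1.18 and -0.78. In all 3 the repair pairs of codes 36 and 48 had the sign of the gel pairs. Code 36 is also the repair pair with lower slow fibre scores in the operated muscle. Whether these genes follow fibre makeup was not tested. The follistatin gene FST, an inhibitor of activin and myostatin, had 1.20 (SE 0.29) in gel pairs and 1.45 (SE 0.42) in repair pairs.

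Markers of other cells were described in the same way. Endothelial markers had 2 of 16 above 0 (median -0.15), where 45.8% of all genes were above 0, and the receptor genes KDR (-0.24), FLT1 (-0.41) and TEK (-0.32) and the adhesion gene PECAM1 (-0.20) were lower in 5 of 5 pairs, while the summed level of the list was 972 to 1185 CPM in gel muscle and 1085 to 1488 CPM in uninjured muscle. The lowest gene of this list had -1.73, and 1 of the 16 was lower at an unadjusted p under 0.05. Of 21 macrophage markers 9 passed the filter on low counts, with a median of 0.50 (0.13 without code 41), and the summed level was 38.7 to 55.9 CPM in gel muscle and 41.3 to 88.0 CPM in uninjured muscle. LAPTM5 alone had a mean of 19.5 CPM in gel muscle and 38.7 CPM in uninjured muscle, so the sum largely reflects this gene. Of the 9, 7 were above 0 and 2 below, the lowest being LAPTM5 at -1.0. At an unadjusted p under 0.05, 1 was higher and 1 lower. Only LAPTM5 was lower in 5 of 5 pairs, and 0 were higher in 5 of 5. APOE, a lipid carrier of macrophages, was higher in 5 of 5 pairs (1.31, SE 0.32, and 1.15 in repair pairs). Of 20 lymphocyte markers only PTPRC was abundant enough to test. Schwann cell and myelin genes had a median of 0.29 over 14 genes (0.20 without code 41), and the myelin gene MBP was higher in 5 of 5 pairs (1.02, SE 0.26). The list was not uniform. Its lowest gene had -1.93, at an unadjusted p under 0.05 there were 2 genes higher and 1 lower, and the median of pair 45 was -0.86. The summed level was 107 to 256 CPM in gel muscle and 102 to 301 CPM in uninjured muscle. Where these levels moved with a result, their part in it was not tested.

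Regeneration and wasting genes of the panel did not separate the groups. PAX7, the satellite cell marker, had 6.35, 2.59, 1.75, 3.05 and 3.15 CPM in gel muscle and 4.32, 6.21, 3.31, 4.71 and 2.34 CPM in uninjured muscle (-0.36, SE 0.32). The myogenic factors MYOD1 (-0.05, SE 0.29) and MYOG (0.37, SE 0.18, higher in 5 of 5 pairs), the acetylcholine receptor gene CHRNA1 (0.11, SE 0.44, and -0.24 without code 41), the ubiquitin ligases FBXO32 (0.07, SE 0.29) and TRIM63 (-0.12, SE 0.18) and the mitochondrial coactivator PPARGC1A (-0.36, SE 0.37, and 0.04 without code 41) lay close to 0. Myostatin MSTN had 5.78, 40.8, 24.9, 46.7 and 14.2 CPM in gel muscle and 8.41, 12.4, 16.8, 7.46 and 35.4 CPM in uninjured muscle (0.63, SE 0.58), higher in gel muscle in pairs 43, 45 and 47. TGFB1 (0.18, SE 0.33, and -0.17 without code 41), XBP1 (0.45, SE 0.30), CSF1R (0.50, SE 0.42), CHAD (0.14, SE 0.32) and MYH4 (0.83, SE 0.42) were the rest of the panel with values, and 0 of the 30 passed the edgeR test, 3 of them having an unadjusted p under 0.05 and the lowest edgeR adjusted p being 0.774.

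**Figure D5:**
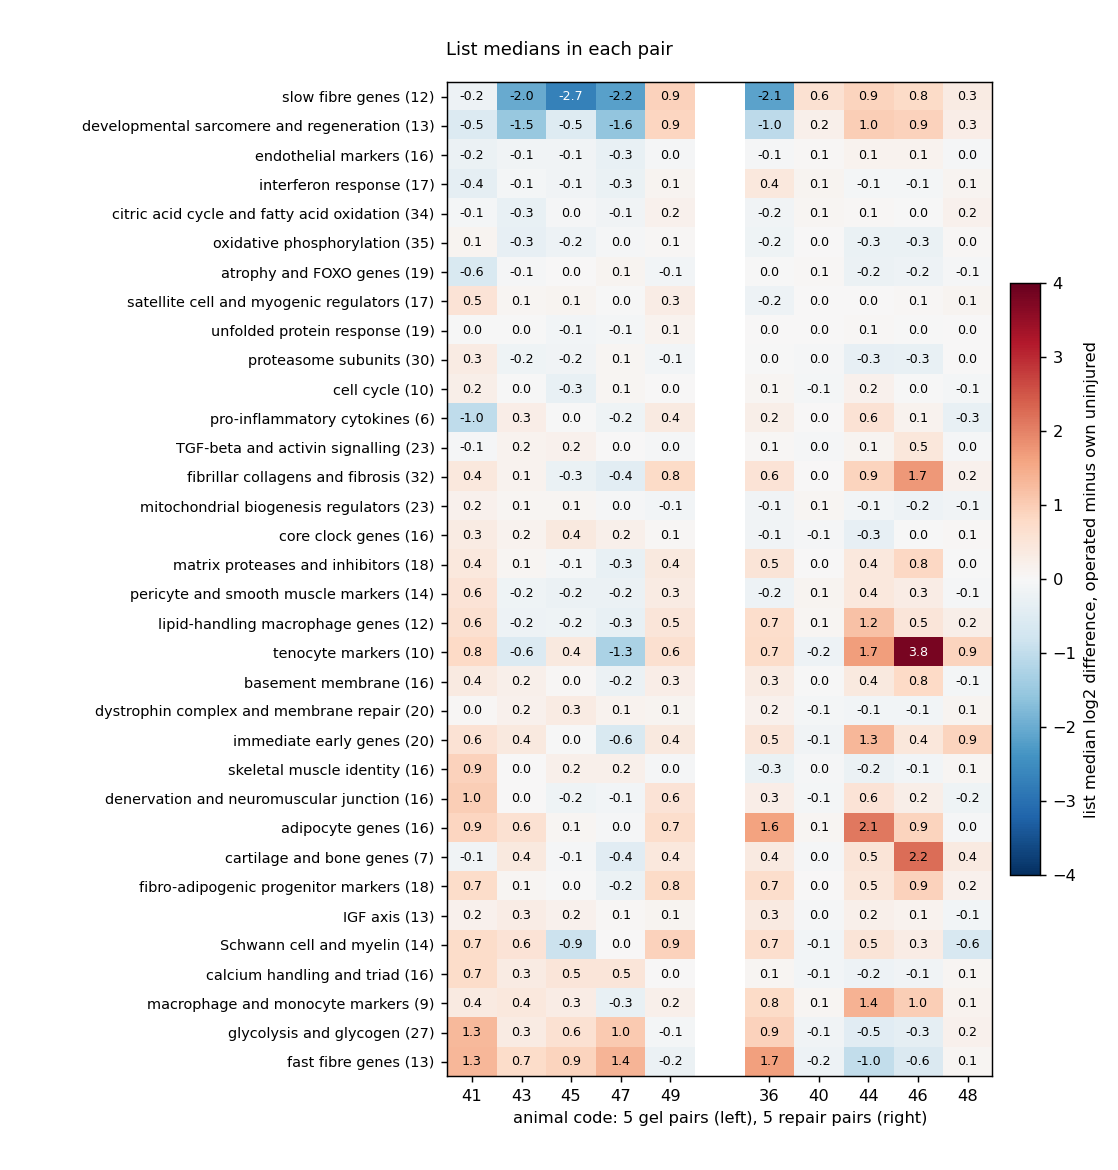
Median log2 difference of each list, operated minus own uninjured muscle, in the 5 gel pairs (left) and the 5 repair pairs (right), with the number of genes tested in brackets. Red is higher and blue lower in the operated muscle. The slow fibre row is blue in gel pairs 43, 45 and 47 and repair pair 36 and red in gel pair 49, and 28 of the 34 fitted list medians of the gel pairs lie between -0.3 and 0.3.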

How the data were processed

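Total RNA of rabbit supraspinatus muscle was extracted and made into libraries by a company, per the labels. The values deposited by the authors are raw read counts per gene, not normalized, 1 library per file. The submitters' processing notes name STAR, edgeR and the OryCun2.0 build. The counting tool, annotation and use of strand were not stated, so overlapping genes and near-identical copies cannot be told apart. The 14 short-term libraries were not used. The 18210 entries became 18202 genes when 15 entries that shared 7 symbols were added up. A RefSeq gene table, built on a different assembly and used for names only, held 2379 of the 3500 LOC identifiers and gave 578 of them a symbol.

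Operated and uninjured muscles were paired by the animal codes in the file names. The labels' own replicate numbers do not pair them, and the labels do not state that the codes are animals. If they are not, p-values measure only the spread between these libraries, which may be technical. Deviations of same-code libraries from their group means correlated at -0.198 to 0.376, above 0.1 in 1 of 5 pairs, so the pairing rests on the codes. In 20 comparisons of libraries of one group, chi-square over its degrees of freedom was at least 9.85, so no library was a duplicate.

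Tests on the counts used R 4.3.3 and edgeR 4.0.16 (filtering by expression, TMM scaling, robust 2-sided quasi-likelihood test, animal code as a block, 4 residual degrees of freedom), limma 3.58.1 and DESeq2 1.42.0. Adjusted p-values are Benjamini-Hochberg over all genes tested, with a threshold of 0.05. Repair pairs and the gel-minus-repair difference were fitted in the 20 long-term libraries. CPM are counts scaled to a common TMM-adjusted library total, pair differences and list scores are on log2 CPM with a prior count of 2, and SE is from the fit. The fits were tested on simulated data. The members, the 37 gene lists and the panel of 37 genes (33 in the files, 30 tested) were chosen with earlier results of these data known. Named genes were the panel, the 10 genes each way with the smallest p that carried a symbol, reached 1 or more in mean log2 CPM and had one direction in 5 of 5 pairs (ranked by p since none passed), and the 5 with the smallest p for gel minus repair. Other list members named were chosen after their values were seen. Alternatives were no block, all 20 libraries in the fit, all 10 uninjured libraries, DESeq2 and its size factors, no filter, voom with quality weights, each pair left out, and, chosen after seeing the data, several of these without code 41. One gene that the naming rule picked is not reported here, and counts over the leading genes leave it out. MYH7, MYH2, MYH8 and PLIN1 are not analysed here, and LEP, CD163 and MKI67 were too low to test in the libraries of the gel pairs.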

Additional observations from a re-analysis of the deposited data

Results flagged for a closer look

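For each of 57 named genes and 34 list scores, the 5 gel libraries and the 5 uninjured libraries were examined for a library far from the other 4, by the gap to its neighbour over the range (Dixon's 95% value for 5 samples, 0.71). For values not chosen beforehand, chance gives about 1 in 20 groups. Many of these genes were chosen from these same values, and genes and lists share members. The count is therefore not a test against that rate. Of 182 groups, 21 had such a library, which was the gel library of code 41 in 8, the gel library of code 49 in 5 and the uninjured library of code 49 in 5. Gene values below are log2(CPM + 0.1) and list values mean log2 CPM.

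The gel library of code 41 was the lowest gel library for DCN at 7.005 (others 8.413 to 8.681), PPARGC1A at 2.994 (4.993 to 5.357), TNIK at 4.301 (5.222 to 5.452) and the mitochondrial biogenesis list at 4.766 (5.293 to 5.453). It was the highest for MYOD1 at 4.945 (3.642 to 3.852), TGFB1 at 3.471 (1.857 to 2.133), the denervation list at 4.766 (3.696 to 3.959) and the skeletal muscle identity list at 12.845 (12.460 to 12.551).

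The gel library of code 49 was the highest gel library for METTL21C at 5.744 (3.508 to 3.805), PPP1R3B at 4.025 (2.302 to 2.719), VWA3A at 1.886 (0.775 to 1.052) and the interferon response list at 2.949 (1.246 to 1.672), and the lowest for CYP2A11 at 1.445 (2.062 to 2.199). The uninjured library of code 49 was the lowest for PPP1R3B at 4.549 (5.454 to 5.622), MLC1 at 0.969 (2.545 to 2.955) and the slow fibre list at 9.297 (10.518 to 10.772), and the highest for FBXO32 at 9.990 (9.396 to 9.545) and the interferon response list at 2.822 (1.782 to 1.897). Interferon response genes were thus high on both sides of this animal code, and its pair difference for that list was a median of 0.12.

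Single cases were the uninjured library of code 41 for HBEGF (5.512, others 5.176 to 5.272), the uninjured library of code 47 for the proteasome list (6.365, others 6.542 to 6.583) and the gel library of code 45 for the cartilage and bone list (1.305, others 1.086 to 1.112).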

How the results depend on the processing

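The count of 0 genes for gel against own uninjured muscle was also 0 without the block, with all 20 libraries, with DESeq2 size factors and without the filter. It was 1 against all 10 uninjured libraries without the block (LOC100009097), 50 with DESeq2 (45 without code 41), 921 with voom (637 without code 41) and 0 to 2 with 1 pair left out. Gel minus repair gave 0 in every alternative run. Uninjured muscle of gel animals against that of repair animals gave 5 with DESeq2 and 0 to 9 with 1 code left out, 9 without code 36 and 1 without code 44. The replicate block by animal code changed no call, since the count was 0 with it and without it. Of the 19 leading genes, 0 changed sign under any alternative.

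Fitted log2 differences that changed sign were as follows, and the cause was not tested. With voom, COL1A1 was -0.086, COL3A1 -0.065, KERA 0.14, CHAD -0.042, TGFB1 -0.23, FABP4 -0.023, CSF1R -0.0497, GPNMB -0.012, CHRNA1 -0.65 and PPARGC1A 0.051. With voom and without code 41, COL1A1 was -0.11, COL3A1 -0.067, KERA 0.094, CHAD -0.14, TGFB1 -0.29, FABP4 -0.012, CSF1R -0.15, GPNMB -0.13, CHRNA1 -0.64, PPARGC1A 0.078 and XIRP2 0.075. Against all 10 uninjured libraries, MYOD1 was 0.17, FBXO32 -0.12, PFKFB3 -0.062, LDHB 0.00052 and MYL4 1.42. Without the block, KERA was 0.087, MYOD1 0.031 and MYL4 0.87. Without the block and code 41, COL1A1 was -0.042, KERA 0.52, CHAD -0.055, TGFB1 -0.21, CHRNA1 -0.29 and PPARGC1A 0.015. With the block, without code 41 and with all other long-term libraries, FMOD was -0.16, KERA 0.26, CHAD -0.015, TGFB1 -0.18, CHRNA1 -0.25 and PPARGC1A 0.028. With DESeq2 and without code 41, FMOD was -0.53, TGFB1 -0.16, CHRNA1 -0.24 and PPARGC1A 0.041. With 1 pair left out, FMOD ran from -0.74 to 0.93, KERA -0.85 to 0.24, CHAD -0.035 to 0.42, TGFB1 -0.17 to 0.36, ADIPOQ -0.089 to 0.25, MYOD1 -0.36 to 0.14, MYH3 -0.031 to 0.33, CHRNA1 -0.24 to 0.51, FBXO32 -0.093 to 0.27, PPARGC1A -0.55 to 0.039 and KLF5 -0.22 to 0.24. The median SE was 0.236, and 0.156 without code 41.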
